A study of Homo sapiens with 74 samples.

Results

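G2E3 is an E3 ubiquitin ligase named for its expression in the G2 and M phases of the cell cycle. It pairs zinc-binding PHD-like and RING-like fingers with a HECT-type domain, shuttles between the nucleus and the cytoplasm with a nucleolar pool, and has been linked to the DNA damage response and to survival of early embryonic cells. Typical HECT ligases take ubiquitin from an E2 enzyme onto their own cysteine and pass it to a substrate. Whether G2E3 itself works by this route is not addressed by these data. HECT ligases are not known as sequence-specific DNA-binding proteins. Cut&Run uses an antibody to bring a nuclease to a tagged protein and sequences the DNA it releases, so a peak marks chromatin that the protein contacts directly or through partners.

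The G2E3 regions described here are the places that were called in both replicates of V5-tagged G2E3, outside the exons of G2E3 itself and outside EEF1A1. They number 826 and come from 7641 peaks, 3482 in replicate 1 and 4159 in replicate 2, out of 92122 peaks in the 72 lists of 36 zinc-finger proteins (ZFPs). G2E3 was expressed for 48 h in HEK293T cells, a human embryonic kidney line, from a plasmid in which the EF1-alpha promoter drives the ORF with a C-terminal V5 tag. The control was un-transfected HEK293T taken through the same V5 immunoprecipitation (mock IP), and neither arm carried any other treatment. The G2E3 was therefore exogenous and overexpressed, the control cells were not transfected, and the lists of all ZFPs share controls of this kind. The methods of the study describe each replicate as a biological replicate from its own well and give about 10 M paired-end reads as the depth of a sample. No source used here gives read totals per list, and list length stands in for depth: the 72 lists ranged from 15 to 8702 peaks with a median of 631. Peak lists hold no expression, so the cell type was taken from the labels.

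The label check came first. Replicate 1 held 7 peaks on G2E3 exons with folds of 307 to 768 over the mock IP, and replicate 2 held 7 with folds of 508 to 1149. The fold is the peak caller's ratio of library to control signal at the summit. EEF1A1, the gene whose promoter the plasmid carries, had a fold of 2887 in replicate 1 and 3602 in replicate 2. Among the lists of the other ZFPs, 1 peak touched a G2E3 exon, at 3.79-fold in CISD1 replicate 1. Of 834 regions linked between the replicates, 7 lay on G2E3 exons and 1 on EEF1A1, which leaves the 826.

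Another place of the same kind stayed inside the 826. G2E3P1, a processed pseudogene of G2E3, had the highest fold of all regions, 1576 and 2181 in replicates 1 and 2, over chr3:132386522-132389064 (hg38). A local alignment paired 1850 of the 2208 coding bases of G2E3 with this region, and 95.1% of the paired bases were identical. The only other list with a peak there was GIN1 replicate 1, at 4.37-fold. Whether reads of the G2E3 plasmid align to it was not tested.

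Regions on coding exons of other tagged ZFPs were also called for G2E3, at far lower fold. GIN1, a gene related to retroviral integrases, had folds of 10.8 and 8.96 at an exon on chr5:103104541-103104856, over 15 kb from the nearest protein-coding start. At that place the GIN1 lists themselves had folds of 2433 and 2024. ZNF22 had G2E3 folds of 6.64 and 6.94 on chr10:45003391-45003919, where the ZNF22 lists had 5229 and 4547. ZNF473 had G2E3 folds of 5.26 and 9.71 on chr19:50044763-50045989. MAZ, whose exon lies at its promoter, had 4.59 and 4.78 on chr16:29807501-29808084, against 129 and 178 in the MAZ lists. A cause for these 4 regions was not tested. They and G2E3P1 were singled out after their values were seen, and 821 regions remain without them.

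Most of the regions lay at promoters of protein-coding genes. Of the 826, 579 (70.1%, exact 95% binomial interval 66.8 to 73.2%, counting error only) lay within 1 kb of a protein-coding transcription start site (TSS) on chromosomes 1 to 22 and X. Another 82 lay within 1 kb of the start of another annotated gene, 89 lay in gene bodies and 27 between genes. Satellite-like sequence, defined as at least 5 ATTCC or GGAAT pentamers within 100 bp of the summit, held 21 regions. The mitochondrial genome held 4. Another 20 lay elsewhere outside chromosomes 1 to 22 and X, 1 of them on chromosome Y and the rest on contigs. Of the promoter regions 452 (78.1%) covered a TSS, and 38.7% of their summits in replicate 1 and 39.2% in replicate 2 lay within 100 bp of the nearest one. They were GC-rich, with a median of 72.6% GC around the summit, against 39.8% in the satellite-like regions.

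Folds differed between these classes. The promoter regions had a median of 4.98-fold in replicate 1 and 5.57-fold in replicate 2, and a region's lower fold (the smaller of its 2 values) was between 4.16 and 5.36 for the middle 50% of them. Only 2 promoter regions reached a lower fold of 10. Regions that hold the start of a small RNA gene were 35 in number with a median lower fold of 8.57, and the remaining 791 had a median of 4.51. Satellite-like regions were lowest, with medians of 2.65 and 2.22. The highest folds of regions outside G2E3P1 were thus mostly at small RNA and ribosomal RNA genes, while the bulk of promoter regions sat in a narrow band near 5-fold.

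**Figure D1:**
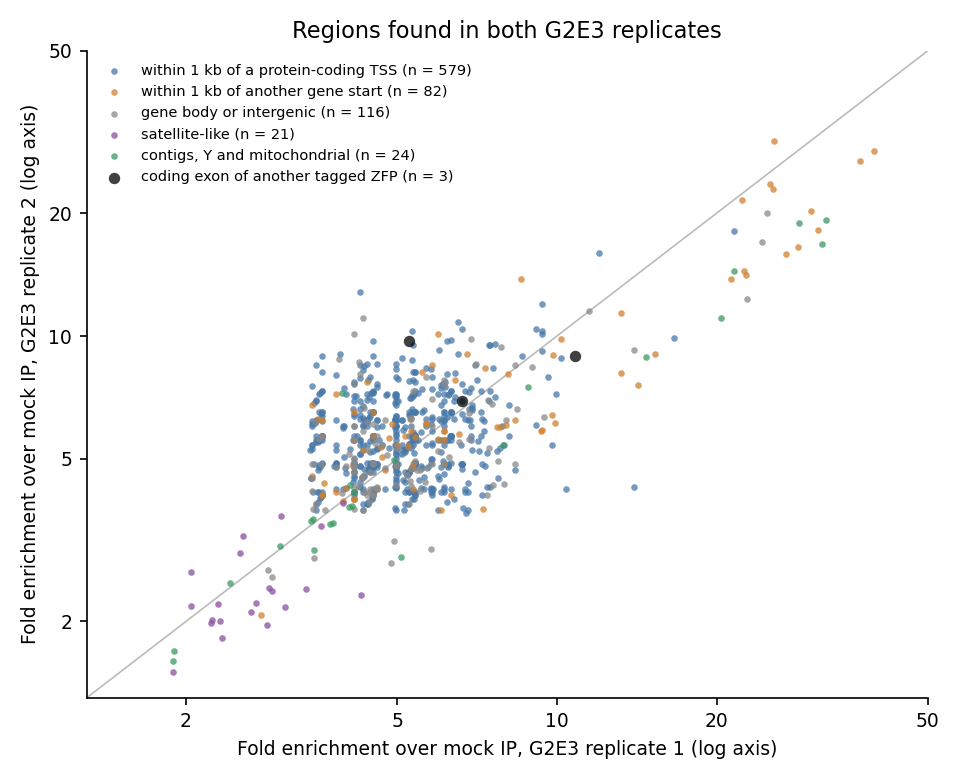
Fold enrichment over the mock IP in replicate 1 (x axis) and replicate 2 (y axis) for the G2E3 regions, both axes logarithmic, one point per region and coloured by class. G2E3P1 (1576 and 2181) is off the axes and not drawn. The 579 promoter regions form a cloud around 5-fold with stripes at shared values, and regions at other gene starts reach 39.6-fold in replicate 1.

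The evidence behind a typical promoter region was thin. Of the 579, 56 (9.67%) had a −log10 q of at least 5 in both replicates, and the median of the lower −log10 q was 2.65. Among regions at the starts of other annotated genes, 36 of 82 passed that level. Requiring it of every peak left 140 regions, of which 40.0% lay within 1 kb of a protein-coding TSS. Fold values were also coarse. In replicate 1 the values 3.61, 4.51 and 5.41 were shared by 298, 233 and 90 peaks, and they are 4, 5 and 6 steps of 0.902. In replicate 2 the values 4.07, 4.89 and 5.70 were shared by 182, 262 and 158 peaks, which are 5, 6 and 7 steps of 0.815. If the caller added its default pseudocount of 1, which the sources used here do not state, these steps stand for piles of 3 to 6 fragments.

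The replicates shared a minority of their peaks. Outside the plasmid places, 24.4% of 3474 replicate 1 peaks were found in replicate 2 (overlap of at least 1 bp), and 20.4% of 4151 replicate 2 peaks were found in replicate 1. Stronger peaks were found more often. Each list was split by q into 4 bins of equal size. In the bin of replicate 1 with the lowest q, 45.9% of 869 peaks were found again, against 11.9% of 869 in the bin with the highest q. The same bins of replicate 2 gave 40.2% and 11.2%. Within each list the share at promoters was also larger for stronger peaks, at 66.6% in the bin with the lowest q and 44% in the bin with the highest q of replicate 1, and 64.3% and 51.8% in replicate 2. Peaks seen in both were also more often at promoters: 68.1% of those in replicate 1 lay within 1 kb of a protein-coding TSS, against 52.5% of those seen in replicate 1 alone. Replicate 2 gave 69.1% and 56.5%. At the 579 promoter regions the summits of the replicates lay a median of 125 bp apart, 385 regions were higher in replicate 2, and 14 differed by over 2-fold.

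Several lists of other ZFPs held more of the G2E3 peaks than the other G2E3 replicate did. For replicate 1 these were 5 of 70 lists: CISD1 replicate 1 held 36.7% of its peaks, ZNF22 replicate 1 held 33.9%, PHF7 replicate 1 held 33.6%, and APEX2 replicates 1 and 2 held 28.2% and 24.9%. For replicate 2 they were 6 of 70, the same 5 lists with 27.3 to 39.1% and GIN1 replicate 1 with 21.7%. Most of these lists are longer than the G2E3 lists, with 5692 to 8702 peaks. APEX2 replicate 2, with 4218 peaks, is close in length to G2E3 replicate 2, and GIN1 replicate 1, with 3063, is shorter than either. These shares describe overlap of lists that may share a mock IP control. Each list was called against a mock IP of its own batch, and which one served which list is not given.

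**Figure D2:**
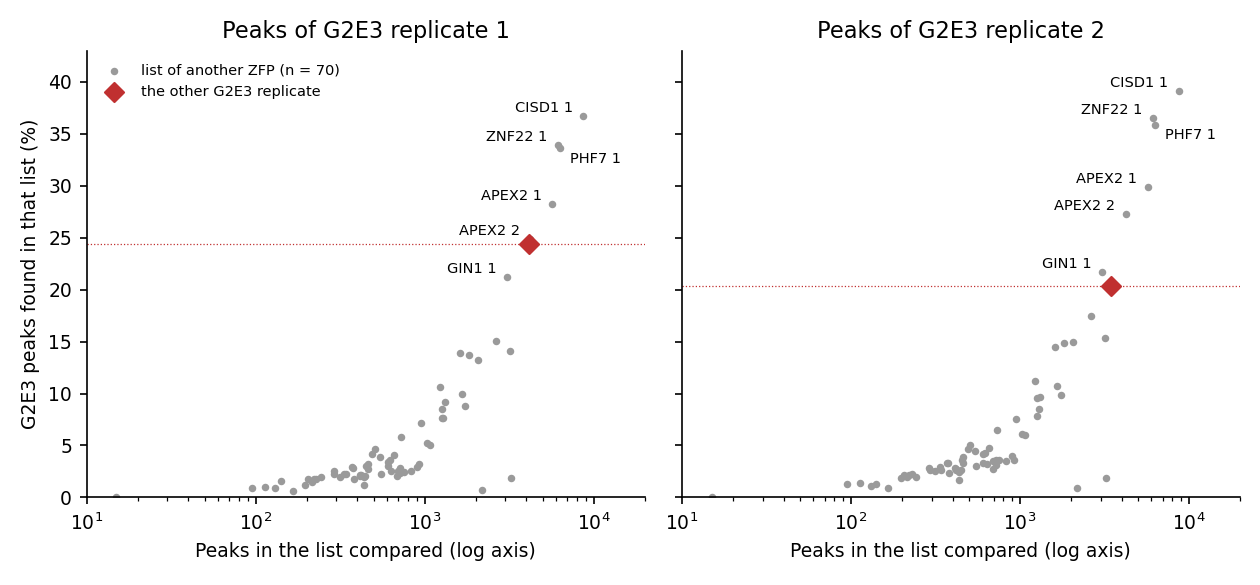
Percent of the peaks of G2E3 replicate 1 (left) and replicate 2 (right) found in every other list, against the number of peaks in that list on a logarithmic axis. Each grey point is one of 70 lists of other ZFPs, and the red diamond and dotted line mark the other G2E3 replicate, at 24.4% and 20.4%. Lists of CISD1, ZNF22, PHF7 and APEX2 lie above the line in both panels.

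Compared with the other 35 ZFPs, G2E3 had long, promoter-rich and GC-rich lists. Its lists averaged 3820.5 peaks, against 1207 ± 1363 (mean ± SD over 35 ZFPs), which was the 4th longest of 36 (two-sided exact permutation test of 1 ZFP against 35, p = 0.111, Benjamini-Hochberg adjusted p = 0.278 over 8 tests). Within 1 kb of a protein-coding TSS lay 56.3% of the peaks of replicate 1 and 59.1% of replicate 2, against 21.4 ± 20.1% in the others, the 3rd highest of 36 (exact p = 0.0833, adjusted p = 0.278). Satellite-like peaks made up 0.862% and 1.39%, against 27.7 ± 17.8%, and 1 other ZFP had a lower share (exact p = 0.139, adjusted p = 0.278). The median GC content at the summit was 68.2% and 68.7%, against 53.4 ± 9.42%, the highest of all 36 (exact p = 0.0278, adjusted p = 0.222). None of the 8 differences passed after adjustment. With 36 ZFPs 0.0278 is the smallest p this test can give, and only GC content reached it. A single measure at that p cannot pass an adjustment over 8 tests, so the test could not have called GC content alone. The other measures had exact permutation p of 0.0833 to 0.778.

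For the other measures G2E3 lay within the range of the rest. Its median peak width was 276 bp, against 261 ± 62.2 bp (exact p = 0.778, adjusted p = 0.778). The share of the shorter list found in the other replicate was 24.6%, against 46.7 ± 19.2%, and 5 ZFPs had a lower share (exact p = 0.306, adjusted p = 0.407). These were RNF113A (18.0%) and ZMAT5, TRIM55, ZC3H3 and MBNL1 (1.05 to 22.7%). For all of them but RNF113A the study lists no Cut&Run targets. Without the 6 ZFPs that have no listed targets, G2E3 lay 28.0 points below the mean of the others (exact permutation p = 0.0667, adjusted p = 0.222). Its replicates thus agreed less than those of most ZFPs with listed targets. The median fold of regions found in both replicates was 4.59, against 3.61 ± 0.790 over the 33 other ZFPs that had any such region (exact p = 0.265, adjusted p = 0.407).

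**Figure D3:**
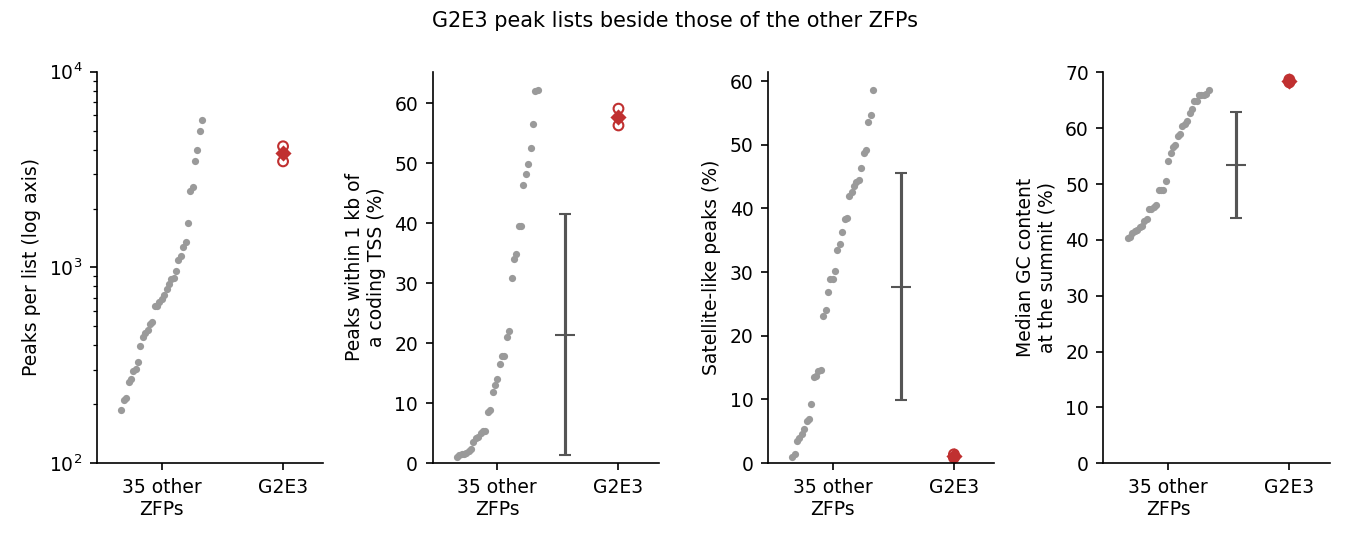
Peaks per list (logarithmic axis), share of peaks within 1 kb of a protein-coding TSS, share of satellite-like peaks and median GC content at the summit. Grey points are the other 35 ZFPs (mean of 2 lists each, in order), the bar is their mean ± SD (not drawn for peaks per list), open red circles are the G2E3 replicates and the diamond is their mean. G2E3 lies near the top for promoters, near the bottom for satellite-like peaks, and above all others for GC content.

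Sequence at the promoters was examined next, since the regions share GC-rich DNA. RefSeq promoters (250 bases before to 50 after the gene start, GRCh38.p14) matched 569 of the 680 protein-coding genes with a TSS within 1 kb of a G2E3 region and 15278 of all 19609. Their median GC content was 69.3%, against 63.0% for all promoters. The stretches shown are the 120 bases before the RefSeq start of promoters with high G2E3 folds, and of ADCY5, whose region overlapped no peak of another ZFP. They were taken from the named promoters whose stretch no annotated exon overlaps, and capitals mark words from the list searched on both strands.
TRIM41, chr5:181223161-181223280, plus strand: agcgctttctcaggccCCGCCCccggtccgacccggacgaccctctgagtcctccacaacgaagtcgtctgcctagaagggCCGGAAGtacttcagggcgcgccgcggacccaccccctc
ABCB10, chr1:229558708-229558827, minus strand: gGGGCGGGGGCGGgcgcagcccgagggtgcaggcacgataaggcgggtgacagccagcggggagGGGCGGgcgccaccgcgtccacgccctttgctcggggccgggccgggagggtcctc
MMS19, chr10:97498795-97498914, minus strand: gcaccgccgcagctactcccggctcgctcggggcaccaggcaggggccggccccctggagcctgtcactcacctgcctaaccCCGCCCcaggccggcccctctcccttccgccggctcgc
UTP18, chr17:51260426-51260545, plus strand: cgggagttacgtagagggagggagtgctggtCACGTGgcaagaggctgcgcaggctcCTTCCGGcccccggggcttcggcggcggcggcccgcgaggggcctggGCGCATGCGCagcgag
ADCY5, chr3:123449091-123449210, minus strand: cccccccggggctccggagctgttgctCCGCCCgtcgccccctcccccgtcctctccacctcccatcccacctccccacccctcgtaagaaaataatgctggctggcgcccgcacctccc

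In these stretches the capitals are the GC box (GGGCGG), the ETS core (CCGGAAG), the E box (CACGTG) and, in UTP18, the NRF1 core (GCATGCGC) matched on both strands. Over the 569 promoters, the GC box was present in 77.5%, against 59.2% of all promoters, and the TATA box (TATAAA) in 4.04%, against 9.65%. The CCAAT box stood in 42.5% against 36.5%, the ETS core in 18.8% against 14.3% and the E box in 11.6% against 8.89%. The NRF1 core, a word of the nuclear respiratory factor 1 site, stood in 65 promoters or 11.4%, against 4.24% of all promoters. In the longer gene sets of the single lists it stood in 7.47% for replicate 1 and 7.87% for replicate 2. Among promoters of 65 to 75% GC it stood in 12.7% of 284 G2E3 promoters and 5.97% of all 4771. The GC box was then near equal at 84.9% and 85.6%. Other words kept a gap there: the CCAAT box with 40.5% against 32.8%, the ETS core with 21.8% against 17.8%, and the E box with 14.4% against 11.2%. The TATA box stood in 0.704% against 2.85%. In that GC range the CCAAT box stood in 44.9% of promoters at APEX2 regions, 40.3% at CISD1 and 42.6% at ZNF22. Without regard to GC range, the NRF1 core stood in 9.07% of the promoters at APEX2 regions, 10.5% at CISD1 and 11.1% at ZNF22, each taken from regions of both replicates. The other words gave smaller differences in percentage points: 2.81% against 1.56% for CTCGCGAG, 2.64% against 3.69% for the AP-1 site (TGAGTCA), 2.46% against 2.64% for the CRE (TGACGTCA), 3.69% against 3.97% for the YY1 site (AAGATGGC) and 0.879% against 0.478% for the ZNF143 site (ACTACAATT). These are shares of promoters that hold the letters on either strand and were not tested. Promoters were matched by gene, and a RefSeq start can lie far from the G2E3 region. For KDM2B the region was chr12:121537936-121538219 and the 120 bases before the RefSeq start were chr12:121581024-121581143. The shares therefore describe promoters of the genes, which in part lie outside the regions.

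The promoter regions named here were the 15 with the highest lower fold. At the top, 2 of them held a gene of RNA polymerase III rather than the coding start. The region near GSTA4, a glutathione transferase, lay on RN7SK, the RNA that holds the elongation factor P-TEFb, with folds of 21.6 and 18.1 on chr6:52995620-52995962. The region near RPS29, a ribosomal protein, lay on RN7SL1, the RNA of the signal recognition particle, with folds of 16.6 and 9.92. Other ZFPs shared both, 24 for the first and 27 for the second.

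The remaining 13 lay within 1 kb of annotated starts of coding genes with varied roles, which need not be the RefSeq start. TEF, a circadian bZIP factor, had folds of 12.0 and 16.0 on chr22:41381068-41381780, 162 bp from its nearest annotated start. The RefSeq start of TEF lies outside this region, next to chr22:41367335-41367454. POLR1B, the second largest subunit of RNA polymerase I, had 9.38 and 12.0 on chr2:112541979-112542861, with the summit in its 5′ UTR. RNH1, the ribonuclease inhibitor, had 9.36 and 10.1. NFE2L2, the regulator of the oxidative stress response, had 9.36 and 10.3. All 4 of these genes were higher in replicate 2. TRIM41, a RING-type E3 ligase, had 9.39 and 9.22. IDI1, an enzyme of isoprenoid synthesis whose region also lies within 1 kb of a WDR37 start, had 9.13 and 10.4 on chr10:1048353-1049511. Its RefSeq start also lies outside the region, next to chr10:1056705-1056824. TSEN34, a subunit of the tRNA splicing endonuclease next to MBOAT7, had 10.2 and 8.83.

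Lower in the order the folds ran from 7.44 to 9.63. ABCB10, a mitochondrial transporter, had 8.59 and 8.94. MMS19, which delivers iron-sulphur clusters to DNA repair and replication enzymes, had 9.63 and 7.96. ESCO1, a cohesin acetyltransferase, had 7.66 and 9.55. PTPN23 of the endosomal sorting pathway had 7.58 and 8.34, and UTP18 of the small-subunit processome had 7.47 and 9.52. ABCA3, a lipid transporter known from lung surfactant, had 7.44 and 9.49. The first 15 promoters therefore hold no single pathway by name.

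These promoters were called for many ZFPs, in part of the lists at folds above those of G2E3. At POLR1B the APEX2 lists had 4.20 and 10.1, the CISD1 lists 14.0 and 6.25, and the ZNF22 lists 15.1 and 14.6. At NFE2L2 they had 12.7 and 13.3 in APEX2, 17.2 and 8.56 in CISD1, and 16.8 and 12.4 in ZNF22. The lower G2E3 fold was passed in 11 of 32 other lists with a peak at POLR1B and in 14 of 32 at NFE2L2. At TEF it was passed in 2 of 19 lists. TRIM41 was the promoter among the 15 where no list of another ZFP passed the lower G2E3 fold: 19 lists of 13 ZFPs held a peak there, the highest at 8.86-fold. Folds of different lists come from libraries of unstated depth and were not tested against each other.

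Sharing depended on how an overlap was counted. Of the 826, 96.9% overlapped a peak of at least 1 other ZFP, against 98.2 ± 3.19% of such regions for the 33 other ZFPs that had any (exact p = 0.618, adjusted p = 0.706). When the other ZFP had to have a region in both of its own replicates, 270 of the 826 overlapped none, and the difference from the mean of the other ZFPs was -23.0 percentage points in place of -1.32 (exact p = 0.0882, adjusted p = 0.222). Counting peaks of either replicate, the median was 6 other ZFPs, 215 regions were called for 10 or more and 7 for all 35. The 3 ZFPs whose own regions in both replicates covered most of those of G2E3 were APEX2, an abasic-site endonuclease, CISD1, an iron-sulphur protein of the mitochondrial outer membrane, and ZNF22, a C2H2 zinc-finger protein. APEX2 covered 365 (44.2%), CISD1 297 (36%) and ZNF22 262 (31.7%). Taken the other way, 27.5% of 1367 APEX2 regions, 26.5% of 1109 CISD1 regions and 31.4% of 850 ZNF22 regions overlapped a G2E3 region. Counting any peak of either replicate, APEX2 held 78.9% of the G2E3 regions, CISD1 77.8%, ZNF22 75.3%, PHF7 71.2% and GIN1 58.5%. Of the 579 promoter regions, 541 overlapped a peak of APEX2, CISD1 or ZNF22, and 323 overlapped peaks of all 3.

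**Figure D4:**
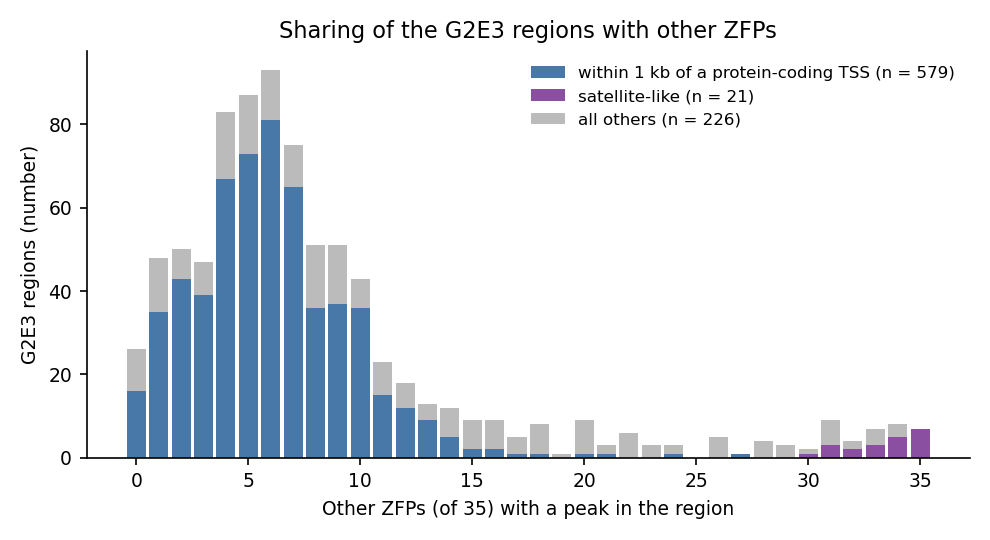
Number of G2E3 regions (y axis) by the number of other ZFPs, of 35, with a peak in the region (x axis), stacked by class. Promoter regions centre on 6 other ZFPs and none exceeds 27, while the 21 satellite-like regions all lie at 30 or more.

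More widely shared promoters had higher folds. The 16 promoter regions in no other ZFP had a median lower fold of 3.92. The 184 in 1 to 4 other ZFPs had 4.45, the 292 in 5 to 9 had 4.64 and the 83 in 10 to 19 had 5.36. Only 4 promoter regions were in 20 or more, with a median of 9.65. Among these were the regions on the RNA polymerase III genes RN7SK, RN7SL1 and RPPH1, with lower folds of 18.1, 9.92 and 5.42. The other was at POLR1B, with 9.38. Region width ran the same way up to 19 ZFPs, from a median of 440.5 bp to 678 bp, and the part of width in the sharing was not tested.

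Promoters called for G2E3 and no other ZFP were at the low end. TNFAIP3, a ubiquitin-editing enzyme of NF-kappaB signalling, led the 10 named with folds of 4.98 and 4.86 on chr6:137866934-137867553. ADCY5, an adenylyl cyclase, had 4.45 and 4.89 on chr3:123449088-123449691. WDR74, a ribosome biogenesis factor, had 4.15 and 6.94 at this region, while a second region within 1 kb of a WDR74 start, on RNU2-2P, had 6.12 and 7.22 and was called for 13 other ZFPs. THRA, a thyroid hormone receptor, had 4.15 and 4.78, and NMT2, an N-myristoyltransferase, had 5.41 and 4.07. USP47, a deubiquitinase, had 4.51 and 4.07. The other 4, PHYKPL, KDM2B, PPEF1 and PDSS1, had folds between 3.83 and 5.18. At TNFAIP3 the −log10 q was 2.99 and 2.60, and in the 10 together it ran from 1.46 to 5.98. A peak that misses the threshold is not listed, so the lack of an overlap does not show that the other ZFPs were absent from these promoters.

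Ribosomal RNA and small RNA genes carried the highest folds apart from G2E3P1. By lower fold the ribosomal regions came first, chr21:8252776-8260947 at a 5.8S rRNA gene with 39.6 and 28.4 and chr21:8432254-8447091 at RNA5-8SN1 with 37.2 and 26.8, both named after their values were seen. Of a list of 34 snRNA and RNA polymerase III genes, 10 (29.4%) had a start within 1 kb of a region, against 1.65% of 60644 annotated genes of all types, with a median lower fold of 11.9. RNU1-2, a gene of the U1 spliceosomal RNA, had 25.7 and 30 on chr1:16895980-16896397, and RNU1-4 had 25.6 and 22.9. RNU1-1 had 22.5 and 14.4, and RNU1-3 had 21.3 and 13.8. RN7SL2 had 15.3 and 9.02. RMRP, the RNA of RNase MRP, had 14.0 and 4.28, the widest gap between replicates among these 10 genes. RPPH1, the RNA of RNase P, had 9.80 and 5.42 and shares its region with the start of PARP2. RNU2-1 of the U2 RNA had 6.77 and 9.02. U1 genes are near-identical copies, so reads cannot be assigned to one of them with certainty.

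The same RNAs were called for other ZFPs, in part of the lists at higher folds. Of 28 other lists with a peak at RNU1-2, 15 passed the lower G2E3 fold, with a median of 28.7 and a highest value of 75.9. APEX2 had 36.3 and 6.96 there, CISD1 49.6 and 40.8, and ZNF22 had 7.94 in replicate 1 and no peak in replicate 2. At RN7SK 12 of 41 other lists passed the lower G2E3 fold, with a highest value of 59.6 and a median of 13.5, below both G2E3 folds.

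Away from starts, a region inside HFM1 was highest with 24.9 and 20 on chr1:91387267-91387551, in 21 other ZFPs. It lies 17286 bp from the nearest start, so the gene name gives its place only. Of 34 other lists with a peak there, 6 passed the lower G2E3 fold, up to 35.2-fold. Ribosomal DNA held 3 of the next 4. A region on the short arm of chromosome 21, chr21:8398161-8402900, had folds of 24.4 and 17.0, and another at chr21:8213810-8219861 had 22.8 and 12.3. They lie 2554 bp and 1238 bp from the 5.8S rRNA genes RNA5-8SN3 and RNA5-8SN2, which are repeated copies, and 33 and 31 other ZFPs had a peak there, up to 217-fold and 226-fold. A shorter one, chr21:8396920-8397622, had 14.0 and 9.27. The gene body of MADCAM1, a cell adhesion receptor, had 11.5 in both replicates on chr19:491648-492062, 2472 bp from the start and in 11 other ZFPs.

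The satellite-like regions lay near centromeres. The highest was chr5:49658633-49660370 with folds of 3.95 and 3.91, and it was one of those called for all 35 other ZFPs. The next were chr10:41874805-41875311 with 3.59 and 3.43, and chr17:21975811-21977013 with 3.02 and 3.63. At the last of these, 47 of 66 other lists passed the lower G2E3 fold. All 7 regions called for all 35 other ZFPs were satellite-like, and the lowest of them, chr5:49601551-49601920, had folds of 1.89 and 1.5.

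Genes near the regions were counted next, to ask which pathways they held. Of 19609 protein-coding genes, 680 (3.47%) had a TSS within 1 kb of a region in both replicates. Replicate 1 alone reached 2156 (11.0%) and replicate 2 alone 2664 (13.6%), with 888 genes in both lists and 3932 in either. The 680 genes exceed the 579 promoter regions because 105 regions lay within 1 kb of 2 or more genes. Pairs of genes that start within 1 kb of each other on opposite strands held 26.8% of the 680, against 12.8% of all protein-coding genes. For the 3 most similar ZFPs the corresponding gene counts were 1192 (6.08%) for APEX2, 657 (3.35%) for CISD1 and 744 (3.79%) for ZNF22, of which 27.7%, 25.3% and 31.5% were in such pairs.

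Of the ubiquitin lists, G2E3's own pathway, E1 and E2 enzymes and USP deubiquitinases had shares above that of all genes. Cullin ligases and the proteasome held no region in both replicates, on short lists where 3.47% is itself few genes. UBE3C was the 1 of 28 HECT ligases with a region (3.57%, against 3.47% of all genes), at 6.64 and 7.63. Of 37 ubiquitin E1 and E2 enzymes, 4 (10.8%) had one, among them CDC34, the E2 of SCF ligases, at 4.98 and 6.39, UBE2G1 at 4.15 and 7.63, and UBE2D3 at 4.13 and 4.39. In the single lists this group had 10 genes (27.0%) in replicate 1 and 8 (21.6%) in replicate 2, above 11.0% and 13.6%. Of 50 USP deubiquitinases, 3 (6%, also above 3.47%) had a region, namely USP5 at 6.89 and 7.45, USP48 at 5.36 and 5.81, and USP47. None of 34 cullin ligase and APC/C genes did, although each replicate alone had 7 (20.6%, above 11.0% and 13.6% of all genes). The regions of APEX2, CISD1 and ZNF22 held 3 (8.82%), 3 (8.82%) and 4 (11.8%) of them, each above its share of all genes. None of 39 proteasome genes had a region, with 1 (2.56%) in replicate 1 and 6 (15.4%) in replicate 2. Regions of APEX2 held 5 E1 and E2 enzymes (13.5%, against 6.08% of all genes). CISD1 regions also held 5 (13.5%, against 3.35%) and ZNF22 regions 2 (5.41%, against 3.79%). A share of E1 and E2 enzymes above that of all genes was therefore not particular to G2E3. HECT ligases numbered 5 (17.9%) for APEX2, 2 (7.14%) for CISD1 and 0 for ZNF22, and USP deubiquitinases 5, 2 and 5.

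Genes of replication, the damage response and apoptosis had shares above the 3.47% of all genes, on small counts, and genes of G2 and mitosis did not. Of 44 genes of G2 and mitosis, KIF23, a motor of cytokinesis, was the 1 with a region (2.27%), at 4.45 and 4.78. DNA replication had 5 of 48 (10.4%): POLD2 at 6.05 and 6.19, RRM2 at 5.36 and 5.70, GINS1 at 5.34 and 5.70, with ORC6 and POLD1 below these. The DNA damage response had 5 of 76 (6.58%), led by PARP2 at the RPPH1 region, POLH, a translesion polymerase, at 4.96 and 6.24, and REV3L at 4.45 and 4.78. Apoptosis genes had 3 of 45 (6.67%): BCL2L1 at 5.41 and 5.55, BIRC6 at 4.26 and 4.28, and AIFM1 at 3.45 and 7.56. The APEX2 regions held 3 replication genes (6.25%) and 12 of the damage response (15.8%), against 6.08% of all genes. The CISD1 regions held 1 (2.08%) and 3 (3.95%), against 3.35%, and the ZNF22 regions 4 (8.33%) and 2 (2.63%), against 3.79%. Apoptosis genes stood at 6.67% for APEX2, 4.44% for CISD1 and 4.44% for ZNF22, each also above its share of all genes.

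RNA and chaperone genes were next. Splicing factors and hnRNPs had 8 of 92 (8.70%, against 3.47% of all genes), with SRSF4 at 6.39 and 6.94, SRSF2 at 6.31 and 7.33, and SNRNP70 of the U1 particle at 7.28 and 5.84. APEX2 had 14 of these genes (15.2%, against 6.08%), CISD1 8 (8.70%, against 3.35%) and ZNF22 8 (8.70%, against 3.79%). In the single lists replicate 1 had 15 (16.3%, against 11.0% of all genes) and replicate 2 had 30 (32.6%, against 13.6%). Ribosome biogenesis had 4 of 65 (6.15%): POLR1B, UTP18, NPM1 at 7.23 and 6.25, and RRP9. Heat shock chaperones had 6 of 86 (6.98%), led by HSP90AA1 at 7.89 and 6.01, DNAJB6 at 5.54 and 5.81, and HSF2 at 5.41 and 4.89. Immediate early genes had 3 of 27 (11.1%), JUND at 5.62 and 4.52, KLF10 at 3.83 and 4.21, and EGR1 at 3.45 and 5.42. For APEX2, CISD1 and ZNF22 the shares were 10.8%, 4.62% and 4.62% in ribosome biogenesis and 11.6%, 4.65% and 5.81% in heat shock chaperones. Immediate early genes stood at 18.5%, 3.70% and 14.8%. Each was above that ZFP's share of all genes, so these raised shares were not particular to G2E3.

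Other housekeeping lists were near or under the share of all genes. Cytosolic ribosomal proteins had 2 of 85 (2.35%), RPS29 at the RN7SL1 region and RPS21 at 4.43 and 7.1. Mitochondrial ribosomal proteins had 2 of 78, MRPS34 at 6.64 and 4.86 and MRPS24 at 5.03 and 4.63. The nuclear respiratory chain genes had 2 of 76, ATP5MC1 at 6.10 and 7.63 and ATP5ME at 6.24 and 4.80. Translation initiation factors had 1 of 39, EIF2A at 5.1 and 5.13. Histone genes had 2 of 69, the neighbours H2AC25 and H2BC26 at 1 region with 5.37 and 5.16. ZNF genes had 14 of 508 (2.76%), led by ZNF768 at 6.62 and 10.4, ZNF444 at 7.21 and 6.52, and ZNF526 at 6.81 and 6.24.

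Lists of developmental and tissue-restricted genes held no region in both replicates. None of 39 HOX genes, 415 olfactory receptors or 47 genes of other tissues had one. In the single lists HOX genes had 4 (10.3%) in replicate 1 and 3 (7.69%) in replicate 2, nearer to the shares of all genes, while 1 olfactory receptor appeared in replicate 1 and no gene of other tissues in either. Of the 23 lists, 11 had a larger share than their background. The counts are descriptions and no list was tested.

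**Figure D5:**
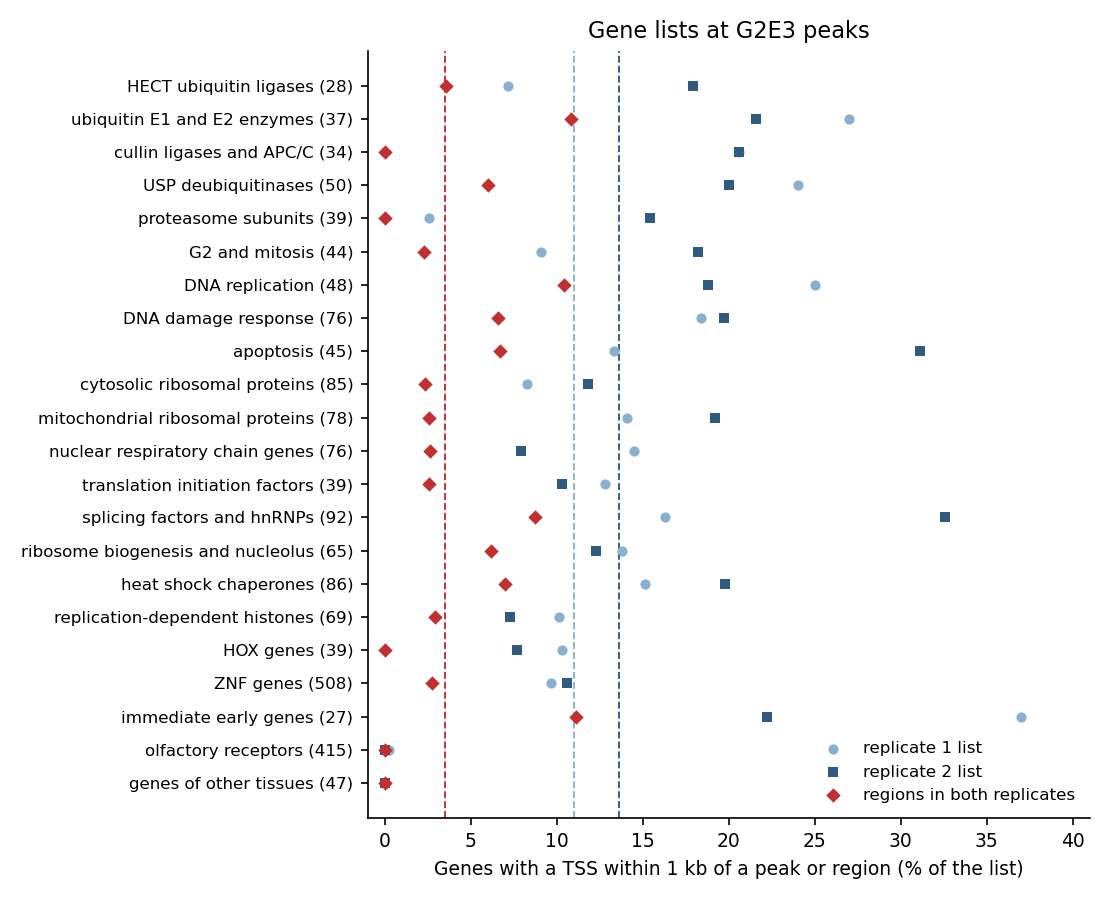
Percent of each gene list (number of members in parentheses) with a TSS within 1 kb of a peak of replicate 1 (circles), of replicate 2 (squares) or of a region in both (diamonds). Dashed lines mark the same share over all 19609 protein-coding genes, 11.0%, 13.6% and 3.47%. Ubiquitin E1 and E2 enzymes, USP deubiquitinases, DNA replication, DNA damage response, apoptosis, splicing factors, heat shock chaperones and immediate early genes have each of their 3 symbols to the right of its own line, and olfactory receptors and genes of other tissues lie at or near 0. The snRNA list is not drawn.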

How the data were processed

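Cut&Run peak lists of V5-tagged G2E3 (2 replicates) were compared with those of 35 other ZFPs, 72 lists in all. The authors trimmed reads (Trimmomatic 0.36), aligned them to hg38 (Bowtie2 2.3.5.1), removed duplicates with Picard and called peaks per library with MACS2 2.2.7.1 against V5 mock IP. The deposited fold is a ratio of library over control signal at the summit, the deposited −log10 p and −log10 q values are the caller's, and the deposited score restates −log10 q. No peak list of the mock IP was used. Plasmid reads have no counterpart in the control, and folds depend on unstated depth.

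Peaks of both lists that overlapped by 1 bp were merged, and places on G2E3 exons, EEF1A1 and its copies were left out. TSSs were those of basic transcripts of GENCODE 44. Distances run from the nearest edge of a region. Python 3.11.15, numpy 2.4.6, pandas 2.3.3 and matplotlib 3.10.9 were used, and overlaps were checked against bedtools 2.31.1 on simulated data. ZFPs were compared with exact permutation tests, each ZFP taking the place of G2E3 in turn. The promoter, gene-list and motif counts are descriptions.

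Regions were named by a rule: the 15 promoter regions of highest lower fold, the 5 highest over 1 kb from any TSS, the 3 highest satellite-like, the 10 highest promoter regions in no other ZFP, the 5 most shared, and the 3 highest of each gene list. One gene under this rule is not reported here. Members and lists were chosen with earlier results of these data known. Alternatives were stricter q, other overlaps and distances, equal list lengths, other pentamer counts, single replicates and the replicate number as a block. Another left out 6 ZFPs for which the study lists no Cut&Run targets (CPSF4, MBNL1, SNRPC, TRIM55, ZC3H3 and ZMAT5).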

Additional observations from a re-analysis of the deposited data

How the results depend on the processing

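The count of regions and genes depended on how strictly peaks were joined. Against 826 regions, 70.1% at promoters and 680 genes, an overlap of 50% of both peaks gave 451 regions, 63.9% and 343 genes, and −log10 q of at least 5 gave 140 regions, 40.0% and 67 genes. Taking 1 list alone gave 3474 to 4151 regions, 56.4 to 59.1% and 2156 to 2664 genes. A distance of 5 kb gave 73.7%, and TSSs of all annotated genes gave 80.8%. The cause of the lower promoter share under a stricter q was not tested. Leaving out G2E3P1 and the exons of other tagged ZFPs, chosen after seeing the data, gave 821 regions, 70.4% and 680 genes. The number of gene lists above background, 11, was 8 to 14 under its alternatives, and the lists were not the same. At −log10 q of at least 5 ubiquitin E1 and E2 enzymes, DNA replication, DNA damage response, apoptosis, heat shock chaperones and immediate early genes fell to 0 genes, and cytosolic ribosomal proteins, nuclear respiratory chain genes and ZNF genes came above the background of 0.342%, on 1 or 2 genes each.

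With the replicate number as a block, the differences from the mean of the other ZFPs were the same, 2614 peaks, 36.3 percentage points at promoters, -26.6 points satellite-like, 15.2 bp of width and 15 points of GC content. GC content alone then passed (exact permutation p = 0.000772, adjusted p = 0.00617). The replicates share only a number, and the block treats the lists of 1 ZFP as independent. Over the measures just named, the deviations between replicates had a correlation over 0.1 in 303 of 630 pairs of ZFPs. With so few measures, which are related to each other, that count cannot decide whether lists of the same number belong together. No difference among the 8 changed sign under any of 45 alternatives, and no other passed, but several sizes moved. The difference in sharing went from -1.32 to -23.0 points with both replicates of the other ZFP and to -2.10 at −log10 q of at least 5. The difference in width went from 15.2 to 73.2 bp at that q and to 153 bp over the 500 peaks of lowest q, that in fold from 0.987 to 2.81 and 2.91, and that in the share found in the other replicate from -22.2 to -13.1 points over the 500 peaks. The causes were not tested. List length limits depth: weak peaks of a short list cannot be told from missed ones.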
